A study of Mus musculus with 24 samples.

Results

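Cells carrying miR-125b were compared between culture day 10 and culture day 13, with doxycycline labelled as kept throughout. Libraries were taken by their labels, 3 from day 10 and 3 from day 13, and paired by replicate numbers 1 to 3. These 6 libraries are part of 24 in the series, which measured total RNA by sequencing and was set up to change the level of miR-125b in fetal liver cells with a truncated GATA1.

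All groups came from E12.5 to E13.5 embryos of a B6J.129(Cg) mouse strain whose Gt(ROSA)26Sor locus carries Cas9 and EGFP behind the broadly active CAG promoter. Every library, controls included, also carried a guide RNA against Gata1 (sgGata1), and the cells are named Gata1s-FLCs, after GATA1s, the short form of GATA1 that lacks its amino-terminal part. The second transgene was miR-125b or a control sequence (miR-ctrl). Both miR-125b groups compared here were labelled with doxycycline at 1 µg/mL, for 10 or 13 days. A second day 13 group of miR-125b cells had doxycycline removed at day 10, and control cells were sampled at the same days under the same drug. The labels give neither the promoter of the second transgene nor the number of embryos behind a library. Nothing in them says that replicates were separate cultures, so p-values measure only the spread between these libraries.

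MicroRNAs are short RNAs that guide the silencing machinery to messenger RNAs, mainly through pairing of their seed, the bases near the 5′ end, with sites in 3′ untranslated regions. Paired transcripts are translated less and degraded faster, so transcripts of direct targets tend to rise when a microRNA is lost. miR-125b has a locus on human chromosome 21 and is abundant in blood stem cells and megakaryocytic leukemia. It is known to repress the transcription factor Arid3a, the RNA-binding protein Lin28b and several genes of the p53 network.

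The mature miR-125b is shown first, with the seed, bases 2 to 8, in capitals, because the target genes below are read against it. It is made from 2 loci, Mir125b-1 at chr9:41581940-41581961 and Mir125b-2 at chr16:77646279-77646300, both on the forward strand (RefSeq sequence, GRCm38.p6).
miR-125b-5p: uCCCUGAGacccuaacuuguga
A 7-base match to the seed is CTCAGGG, and an 8-base site, CTCAGGGA, adds an A opposite the first base. Such a 7-base match occurred in 14.2% of the 20854 longest annotated 3′ untranslated regions (GENCODE M21, GRCm38), and 5.03% held the 8-base site. Of 10 reported targets that rose between day 10 and day 13, 7 held an 8-base site, 2 a 7-base match and 1 neither. The list was made of miR-125b targets, so many of its other members hold sites too: of 33 targets that did not pass, 15 held an 8-base site, 9 a 7-base match and 9 neither. The 8-base sites of those 7 genes are printed in 30-base windows of the 3′ untranslated region, with the site in capitals.
Arid3a (chr10:79952873-79952902, forward strand): gtggcctcctgtgcCTCAGGGAtgacagtg
Arid3a (chr10:79953806-79953835, forward strand): ccatgggtaactggCTCAGGGAtatagcag
Lin28b (chr10:45378790-45378819, reverse strand): gacaaagaactttgCTCAGGGAacatacca
Zfp385a (chr15:103314787-103314816, reverse strand): ggaacaccccagatCTCAGGGAaccccgcc
Lactb (chr9:66955445-66955474, reverse strand): attagttctttacaCTCAGGGAaataacag
Tor2a (chr2:32761988-32762017, forward strand): aatgtgaacggcaaCTCAGGGAcgaaggct
E2f3 (chr13:29908723-29908752, reverse strand): gctctaatgccacaCTCAGGGAgaccactt
Suv39h1 (chrX:8061824-8061853, reverse strand): tccatacagattgtCTCAGGGAagccttga
The 3082-base 3′ untranslated region of Arid3a held both of these sites and 4 further 7-base matches.

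Arid3a, Lin28b and other reported miR-125b targets were higher in the libraries labelled day 13 (continued) than at day 10, although doxycycline was labelled as kept. Of 45 tested literature targets, 10 rose and 2 fell. Over all 13419 genes tested, 6.48% rose and 6.93% fell. The list median log2 fold change was 0.13, beside -0.03 for all genes. Arid3a, Lin28b, Lactb and Tor2a were near the control level in the group labelled continued and near the day 10 level in the group labelled withdrawn. Other targets that rose did not share this pattern: E2f3 and Cbfb lay close in both groups. For Cbfb the log2 fold changes from day 10 were 0.47 (continued) and 0.35 (withdrawn). Whether the labels of these 2 day 13 groups were exchanged was not tested, and an exchange would make every day 13 (continued) value below one of withdrawn cells. Directions below are between libraries as labelled. miR-125b itself could not be followed: Mir125b-1, Mir125b-2 and the host gene Mir99ahg had 0 counts in all 24 libraries, and the table holds no measure of the mature microRNA.

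Arid3a (ENSMUSG00000019564, chr10:79927043-79955018, forward strand) encodes a transcription factor of megakaryocyte and B cell development. Its normalised count was 32.8, 32.8 and 29.8 CPM (counts scaled to library size by TMM) in day 10 replicates 1 to 3, and 45.4, 57.5 and 53.7 CPM in the libraries labelled day 13 (continued). All 3 libraries of the later day lay above all 3 of the earlier one, with means of 31.8 ± 1.70 and 52.2 ± 6.15 CPM (SD, n = 3). The log2 fold change was 0.71 ± 0.16 (SE), with an adjusted p of 0.00974 by edgeR's quasi-likelihood test (two-sided, Benjamini-Hochberg over all genes tested). In cells labelled as having lost doxycycline at day 10, Arid3a was 31.4, 35.6 and 26.7 CPM, overlapping the day 10 values. Control cells held 50.8, 53.6 and 71.0 CPM at day 10 and 49.5, 61.5 and 71.9 CPM at day 13. For Arid3a the libraries labelled day 13 (continued) reached into the range of the controls, while those labelled as withdrawn did not. The reason was not tested. When each library was left out in turn, Arid3a missed the threshold in 2 of 6 cases, with a highest adjusted p of 0.0754.

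Lin28b (ENSMUSG00000063804, chr10:45376620-45486395, reverse strand) blocks let-7 maturation and marks fetal blood progenitors. It measured 33.2, 37.0 and 33.8 CPM at day 10 and 58.4, 60.8 and 50.9 CPM in the libraries labelled day 13 (continued). The groups did not overlap, and the log2 fold change was 0.70 ± 0.10 (SE, adjusted p = 0.00122). The withdrawn group was at 39.2, 37.1 and 38.6 CPM. Lin28b stayed past the threshold in all 6 fits without a library.

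Zfp385a, an RNA-binding p53 cofactor, measured 284, 375 and 255 CPM at day 10 and 356, 467 and 413 CPM at day 13 (continued). Each replicate was higher than its own partner although the groups overlapped, and the log2 fold change was 0.44 ± 0.08 (SE, adjusted p = 0.00389). Without the replicate block its adjusted p was 0.107. Lactb, a mitochondrial protease, went from 11.2, 19.2 and 13.1 CPM to 21.5, 24.1 and 20.2 CPM, without overlap. Tor2a, a torsin ATPase, went from 15.9, 17.5 and 12.4 CPM to 19.3, 21.9 and 20.5 CPM, also without overlap. In the withdrawn group Lactb was 14.1, 14.1 and 14.6 CPM and Tor2a was 13.7, 15.8 and 14.7 CPM, both within the day 10 range.

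The remaining targets that rose were E2f3 and the histone methyltransferase gene Suv39h1, the kinase genes Mapk14 and Mknk2, and Cbfb, the RUNX partner, with log2 fold changes of 0.22 (Mknk2) to 0.50 (E2f3). The 2 that fell, Bbc3 and Trp53inp1, also belong to the p53 list below. Abtb1, another reported target, did not pass between the days. It was 57.6, 59.1 and 59.2 CPM at day 10 and 48.4, 59.0 and 68.6 CPM at day 13 (continued), beside 30.4, 35.9 and 30.9 CPM in the withdrawn group. Its adjusted p was 0.96 in the first comparison and 0.0133 in the second. Counts for the target list rested on single libraries: 4, 12 and 2 targets rose when day 10 replicate 1, 2 or 3 was left out, 4, 2 and 6 when day 13 (continued) replicate 1, 2 or 3 was left out, and 3 without the block.

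**Figure D1:**
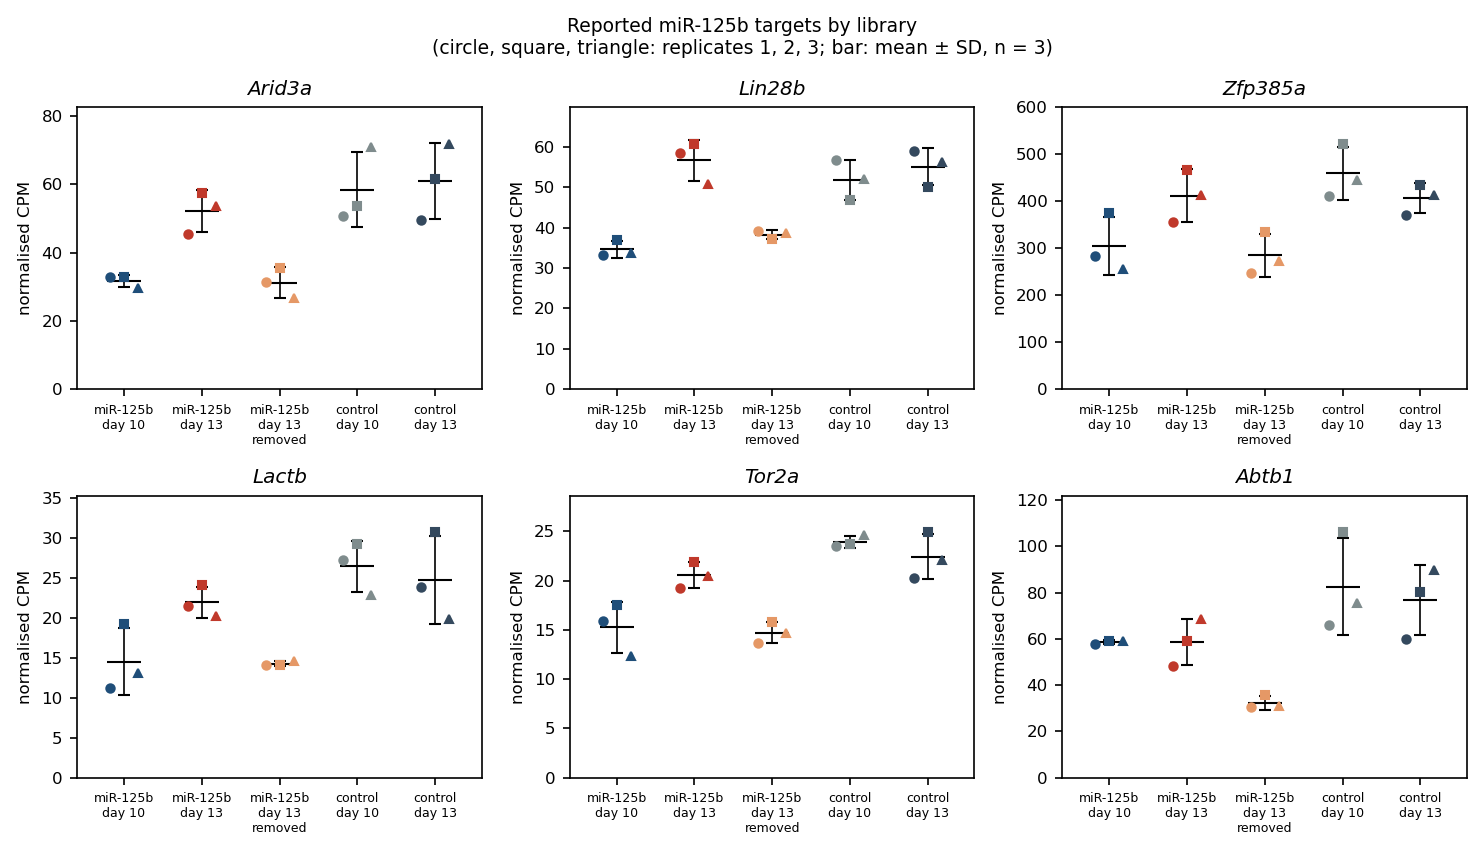
Normalised CPM of 6 reported miR-125b targets (vertical axes from 0) in 5 groups of 3 libraries, with points for replicates 1 to 3 and bars for the mean ± SD. In the libraries labelled day 13 (continued), Arid3a, Lin28b, Lactb and Tor2a lie above all day 10 values, while in the group with doxycycline removed Arid3a sits between 26.7 and 35.6 CPM.

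Across all genes with an annotated 3′ untranslated region, the same sites went with small differences. Genes with an 8-base site (718) rose in 9.75% of cases and fell in 6.55%. Genes with a 7-base match (1301) rose in 6.99% and fell in 7.61%, and genes with neither (9659) rose in 7.24% and fell in 7.14%. The median log2 fold changes of the 3 classes were 0.0035, -0.01 and -0.02. Among genes with an average log2 CPM of at least 2 the medians were 0.06, 0.02 and 0.02. The classes also differed in length of the 3′ untranslated region, with medians of 2493.5, 2348 and 1146 bases. The longest transcripts had a median of 3667 bases for genes that rose and 2867 bases for genes that fell. The part of length in these differences was not tested. All these values are descriptions, with no test.

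Between day 10 and the libraries labelled day 13 (continued), 1800 of 13419 tested genes changed at an adjusted p under 0.05, which is 13.4%. Of these, 870 rose and 930 fell. The changes were mostly below 2-fold, with a median absolute log2 fold change of 0.50 among changed genes. Past 2-fold in either direction lay 342 changed genes, of which 14 rose and 328 fell. In 1789 of the 1800, all 3 replicate pairs moved the same way. The groups did not overlap in 80.3% of the changed genes and in 26.7% of all genes tested.

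The 6 libraries held 15845604 to 20910928 counts, with TMM factors of 0.983 to 1.02. The replicate number was the largest source of difference among them: the first principal component (42.6% of the variance) set replicate 2 apart in both groups, and the second (28.3%) set the days apart. Without the replicate block 474 genes changed, all of them among the 1800. Leaving out day 10 replicate 1, 2 or 3 gave 497, 2634 and 182 changed genes, and leaving out day 13 (continued) replicate 1, 2 or 3 gave 536, 372 and 1249.

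**Figure D2:**
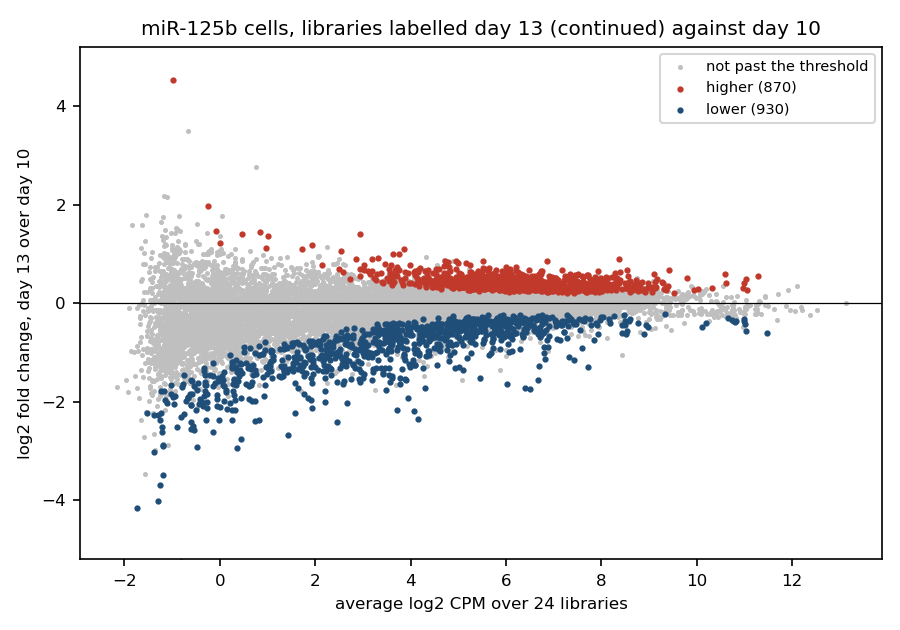
Log2 fold change of day 13 (continued) over day 10 against average log2 CPM, 1 point per tested gene, with 870 higher genes in red and 930 lower genes in blue. Past 2-fold, 328 lower genes stand against 14 higher ones, and 2 genes lie outside the vertical axis.

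Direction went with expression level and base composition. With genes divided into 5 equal bins by average expression, the median log2 fold change was -0.33 in the lowest bin and 0.06 in the highest. By GC content of the longest transcript it ran from 0.05 in the lowest bin to -0.15 in the highest. The same bins in control cells ran from 0.06 to -0.02 and from 0.07 to -0.06. Genes that rose had a median GC content of 46.6%, and genes that fell had 53.5%. Of the 930 falling genes, 27 were long intergenic and 18 antisense RNAs, and of the 870 rising genes 0 were either. Among the 11619 genes that did not pass, 291 were long intergenic and 329 antisense RNAs. The part of these properties in the gene group results was not tested, but the list medians printed below are also given after subtracting from each gene the median of genes in its bins, called the adjusted median. For the reported targets above it was 0.09.

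Heat shock genes rose together. Of 13 tested chaperones and cochaperones, 7 rose and 0 fell, with a median log2 fold change of 0.40 (adjusted median 0.32), beside 6.48% of all genes rising. They serve the HSP90, HSP70 and HSP60 systems, which fold new and damaged proteins. Hsph1 (ENSMUSG00000029657, chr5:149614287-149636376, reverse strand), an HSP70 exchange factor, was 90.2, 78.1 and 87.9 CPM at day 10 and 192, 149 and 126 CPM at day 13 (continued). No library of the later day fell within the day 10 range. The rise was 1.82-fold, a log2 fold change of 0.86 ± 0.13 (SE, adjusted p = 0.00137).

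Hspd1, the mitochondrial chaperonin HSP60, was nearly level at day 10 with 525, 521 and 522 CPM, and measured 972, 762 and 796 CPM in the libraries labelled day 13 (continued). Its log2 fold change was 0.68 ± 0.12 (SE, adjusted p = 0.00253). Hsp90aa1, the inducible HSP90, went from 1200, 1310 and 1130 CPM to 1980, 1790 and 1690 CPM (log2 fold change 0.58, adjusted p = 0.00428). Dnaja1, an HSP70 cochaperone, went from 191, 156 and 180 CPM to 321, 204 and 260 CPM. In none of these 4 genes did the groups overlap, as for 80.3% of all changed genes. Each of the 4 stayed called in all 6 fits without a library. Chordc1, Ahsa1 and Hspa8 also rose, by 0.40, 0.43 and 0.55 on the log2 scale. Hspa1b, the stress-induced HSP70, stood at 1.53, 0.609 and 1.57 CPM and then 2.64, 0.894 and 1.21 CPM, with an adjusted p of 0.513.

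The same interval in control cells gave 0 changed heat shock genes and a list median of -0.06. The difference between miR-125b and control cells passed upward for 6 of the 13, beside 1.99% of all genes. Among them was Hsph1 (difference in log2 fold change 0.92, adjusted p = 0.0181). Counts of such differences rested on the pairing and on single libraries: over all genes 517 passed with the block and 3 without it. By group mean, day 10 miR-125b cells were the lowest of the 5 groups compared for Hsph1, although 1 control library lay below them: control cells held 146, 74.9 and 129 CPM of Hsph1 at day 10 and 124, 98.8 and 108 CPM at day 13. The withdrawn group held 162, 142 and 151 CPM. The count of 7 fell to 4 without day 10 replicate 1, to 4 without day 13 (continued) replicate 2 and to 4 without the block.

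The heat shock element, to which heat shock factors bind, was searched on both strands as GAA, TTC and GAA with 2 free bases between neighbours (TTC, GAA and TTC on the other strand), in RefSeq promoters (GRCm38.p6). It was present in 4 of 10 matched heat shock list members and in 3 of the 5 matched members that rose, against 0.662% of 27025 genes. Because the list was made of heat shock genes, a share above that of all genes describes the list and not the rise. A promoter of Hsph1 and that of Chordc1 are printed because they show the element in genes that moved together, with the matching letters in capitals.
Hsph1 (chr5:149636287-149636586, reverse strand): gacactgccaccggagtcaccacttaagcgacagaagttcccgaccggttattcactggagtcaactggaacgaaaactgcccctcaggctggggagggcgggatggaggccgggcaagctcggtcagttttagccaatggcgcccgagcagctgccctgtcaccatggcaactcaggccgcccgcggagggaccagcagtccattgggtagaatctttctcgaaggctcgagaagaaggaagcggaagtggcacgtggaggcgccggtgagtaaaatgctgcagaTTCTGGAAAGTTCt
Chordc1 (chr9:18292017-18292316, forward strand): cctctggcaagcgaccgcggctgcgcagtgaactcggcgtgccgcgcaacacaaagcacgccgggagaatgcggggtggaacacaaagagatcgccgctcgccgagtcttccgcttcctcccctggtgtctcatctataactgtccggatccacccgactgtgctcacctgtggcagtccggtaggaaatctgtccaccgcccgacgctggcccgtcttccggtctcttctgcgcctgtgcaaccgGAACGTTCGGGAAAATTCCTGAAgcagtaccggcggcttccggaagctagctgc
A match describes these letters and does not show binding.

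Part of the DNA replication genes also rose. Of 48 tested, 13 rose and 2 fell (E2f1 and Rfc2), beside 6.48% and 6.93% of all genes, and 43 had a positive log2 fold change. The list median was 0.22 (adjusted median 0.15). The largest rises were in the E-type cyclins, which drive entry into S phase with CDK2. Ccne2 was 21.9, 26.8 and 24.3 CPM at day 10 and 41.2, 45.6 and 42.0 CPM at day 13 (continued), a log2 fold change of 0.81 ± 0.13 (SE, adjusted p = 0.00154). Ccne1 went from 16.2, 28.7 and 14.7 CPM to 31.4, 42.6 and 29.9 CPM (log2 fold change 0.81, adjusted p = 0.00826). Neither cyclin overlapped between the groups.

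Rrm2, the small subunit of ribonucleotide reductase, went from 236, 225 and 203 CPM to 319, 286 and 305 CPM. The licensing factor Cdc6, the polymerase gene Pola1, thymidylate synthase (Tyms), Pcna, Pola2 and 4 genes of the MCM helicase (Mcm2, Mcm3, Mcm4 and Mcm5) rose as well, by 0.24 (Pola2) to 0.46 (Pola1) on the log2 scale. Among 32 mitosis genes, 4 rose (Kif20a, Ttk, Racgap1 and Ect2) and 0 fell, beside 6.48% and 6.93% of all genes. The median of the mitosis list was 0.13 (adjusted median 0.06). Control cells gave 0 changes in both lists and medians of -0.07 and 0.09. The 13 replication genes became 4, 20 and 3 without day 10 replicate 1, 2 or 3. They became 6, 4 and 11 without day 13 (continued) replicate 1, 2 or 3, and 7 without the block. Of the 4 mitosis genes, 0 passed without day 10 replicate 3 and 1 without the block.

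**Figure D3:**
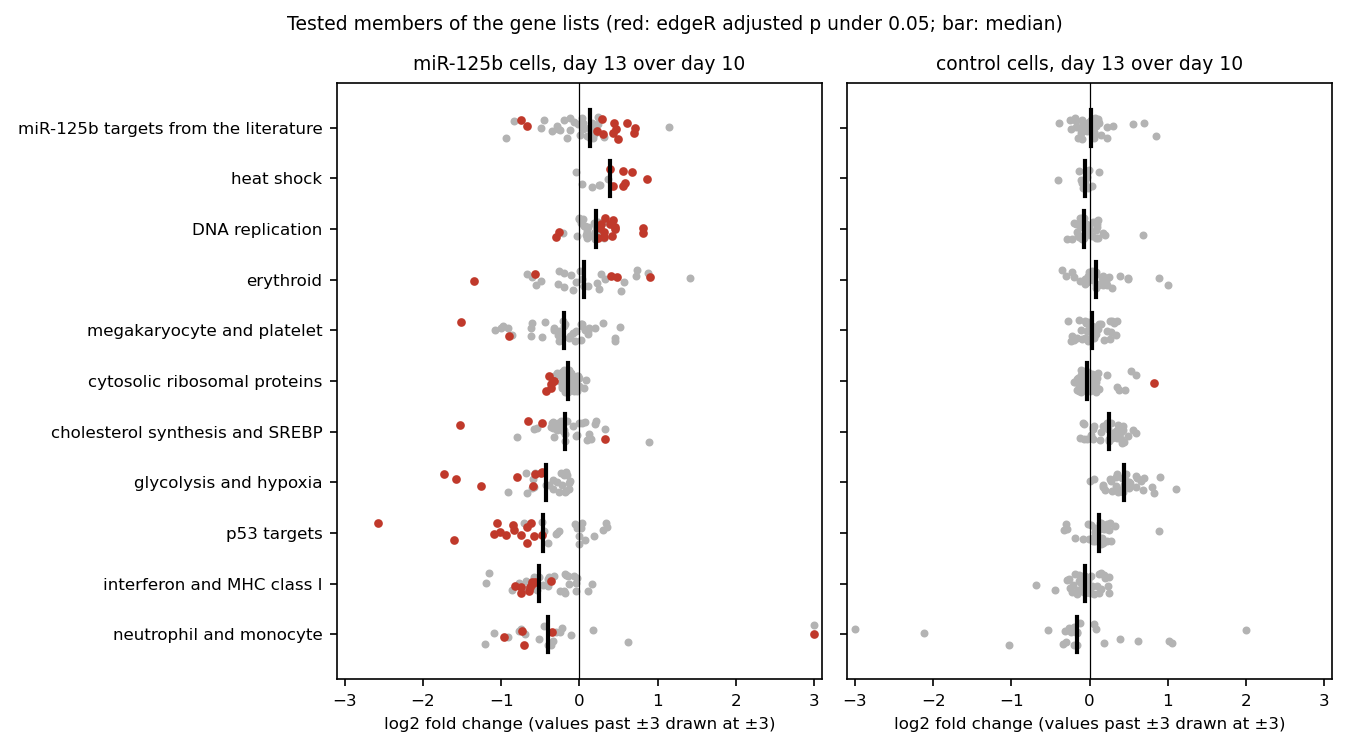
Log2 fold change of day 13 over day 10 for the tested members of 11 gene lists in miR-125b cells (left) and control cells (right), with members past the threshold in red and the list median as a bar. The glycolysis and hypoxia list lies wholly below 0 in miR-125b cells (median -0.42) and wholly above 0 in control cells (median 0.45).

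Many p53 target genes fell. The transcription factor p53 switches on genes for cell cycle arrest, DNA repair and apoptosis after damage. Of 32 tested targets, 14 fell and 0 rose, beside 6.93% of all genes falling, and the list median was -0.46 (adjusted median -0.41). Cdkn1a (ENSMUSG00000023067, chr17:29090976-29100727, forward strand), the CDK inhibitor p21, was 231, 171 and 421 CPM at day 10 and 111, 106 and 163 CPM in the libraries labelled day 13 (continued). The groups did not overlap, and day 10 replicate 3 stood far above the other libraries. The log2 fold change was -1.09 ± 0.18 (SE, adjusted p = 0.00208).

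Ak1, an adenylate kinase gene on the p53 list, measured 16.2, 20.0 and 35.8 CPM at day 10 and 5.85, 6.32 and 11.4 CPM at day 13 (continued), a 3.04-fold fall. Zmat3, an RNA-binding p53 effector, went from 40.4, 57.8 and 87.0 CPM to 23.4, 39.7 and 39.9 CPM. Phlda3, an inhibitor of AKT, went from 47.0, 49.6 and 92.6 CPM to 22.9, 30.9 and 39.8 CPM. Ercc5, a nuclease of nucleotide excision repair, fell by 0.62 on the log2 scale. Groups did not overlap in any of these 4 genes, as for 80.3% of all changed genes. In each of the 4, day 10 replicate 3 held the highest of the 6 values.

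The apoptosis genes Bbc3 (PUMA) and Pmaip1 (NOXA), the death receptor genes Fas and Tnfrsf10b, and Btg2, Sesn2, Psrc1, Trp53inp1 and Pltp completed the 14. Bbc3 was 150, 127 and 237 CPM and then 76.7, 94.7 and 134 CPM. Of 15 BCL2 family genes, only Bbc3 and Pmaip1 changed, both downward, beside 6.93% of all genes falling. Trp53 itself was 314, 336 and 294 CPM at day 10 and 375, 365 and 369 CPM at day 13 (continued), with an adjusted p of 0.0696. Mdm2, a p53 target that degrades p53, had an adjusted p of 0.109.

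In control cells 0 p53 targets changed over the same days, and the median was 0.12. The difference between the arms passed downward for 8 of the 32, beside 1.86% of all genes, among them Cdkn1a (difference -1.27, adjusted p = 0.0182). Like all counts of such differences, it rested on the pairing and on single libraries. Control cells held 126, 136 and 154 CPM of Cdkn1a at day 10, so that the day 10 miR-125b libraries were the high group. The count of 14 became 5 without day 10 replicate 3, 9 without day 13 (continued) replicate 1 and 8 without the block. The list median without day 10 replicate 3 was -0.35.

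Several genes of glycolysis and the hypoxia response fell in miR-125b cells. The list holds enzymes that turn glucose into lactate and targets of the hypoxia-inducible factors. Of 31 tested, 8 fell and 0 rose, beside 6.93% of all genes falling, and all 31 fitted log2 fold changes were negative, with a median of -0.42 (adjusted median -0.45). In control cells all 31 were positive, with a median of 0.45 and 0 past the threshold. The difference between the arms passed the threshold for 8 of the 31, all of them lower in miR-125b cells, beside 1.86% of all genes.

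Ndrg1, a hypoxia-induced gene, was 42.6, 21.7 and 58.3 CPM at day 10 and 17.4, 14.6 and 18.1 CPM at day 13 (continued), a log2 fold change of -1.26 ± 0.25 (SE, adjusted p = 0.00539). Pdk1, a pyruvate dehydrogenase kinase, was 253, 131 and 196 CPM and then 146, 105 and 129 CPM (log2 fold change -0.59, adjusted p = 0.0248). In control cells Pdk1 was 102, 99.1 and 104 CPM at day 10 and 159, 186 and 136 CPM at day 13. Its difference between the arms was -1.25 (adjusted p = 0.0161).

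Aldoc, an aldolase, went from 139, 138 and 177 CPM to 32.4, 52.3 and 59.2 CPM. The aldolase Aldoa, the isomerase Gpi1, the oxygen sensor Egln1, Car9 and Ankrd37 also fell. Ndrg1, Aldoc, Aldoa and Car9 did not overlap between the groups, whereas Pdk1, Gpi1, Egln1 and Ankrd37 did. Among all changed genes the groups did not overlap in 80.3%. Vegfa, Slc2a1 and Ldha did not pass, with adjusted p of 0.176, 0.503 and 0.474. Day 10 replicate 2 lay below replicates 1 and 3 for Ndrg1, Pdk1, Gpi1 and Aldoa. The count of falling genes among the 31 was 1, 15 and 0 without day 10 replicate 1, 2 or 3. The counts without day 13 (continued) replicate 1, 2 or 3 were 1, 1 and 6, and 1 gene fell without the block.

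The core of the hypoxia response element, ACGTG on either strand (CACGT on the other), which also lies inside the E-box CACGTG, was present in the promoters of 20 of 27 matched list members and 5 of the 7 matched members that fell, against 21.8% of all 27025. Because the list includes targets of the hypoxia-inducible factors, a share above that of all genes describes the list and not the fall. The matched members that fell held the core in 71.4% of cases, and all matched members in 74.1%. The promoter of Ankrd37, printed as an example from the falling genes, held 2 matches.
Ankrd37 (chr8:45999801-46000100, reverse strand): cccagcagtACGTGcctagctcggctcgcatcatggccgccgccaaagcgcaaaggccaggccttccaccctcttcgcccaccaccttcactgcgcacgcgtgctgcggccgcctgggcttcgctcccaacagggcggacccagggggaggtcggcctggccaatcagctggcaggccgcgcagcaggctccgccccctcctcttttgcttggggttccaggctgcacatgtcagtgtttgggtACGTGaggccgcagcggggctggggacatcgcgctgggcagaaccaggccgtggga

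Several interferon-induced and MHC class I genes fell. These genes cut peptides, load them and present them to T cells, or act against viruses. Of 39 tested, 9 fell and 0 rose, beside 6.93% of all genes falling, with a median of -0.52 (adjusted median -0.42). Tap1, a subunit of the peptide transporter, was 82.7, 57.3 and 111 CPM at day 10 and 43.1, 44.3 and 60.5 CPM at day 13 (continued). The groups overlapped, yet each replicate was lower than its partner, and the log2 fold change was -0.75 ± 0.14 (SE, adjusted p = 0.00351).

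The peptide-loading chaperone Tapbp went from 75.8, 81.8 and 93.3 CPM to 47.8, 57.6 and 60.8 CPM, without overlap. The class I light chain B2m went from 513, 352 and 652 CPM to 357, 247 and 412 CPM. The heavy chains H2-K1 and H2-D1, the immunoproteasome subunits Psmb8 and Psmb9, Xaf1 and Oas3 fell by 0.36 (H2-D1) to 0.82 (Xaf1) on the log2 scale. Reads of the H2 genes can be shared with close copies, so their values are uncertain. In control cells 0 members changed, with a median of -0.06, and the difference between the arms passed for 0 of 39. The 9 falling genes became 5, 14 and 1 without day 10 replicate 1, 2 or 3, 4, 2 and 9 without day 13 (continued) replicate 1, 2 or 3, and 2 without the block.

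**Figure D4:**
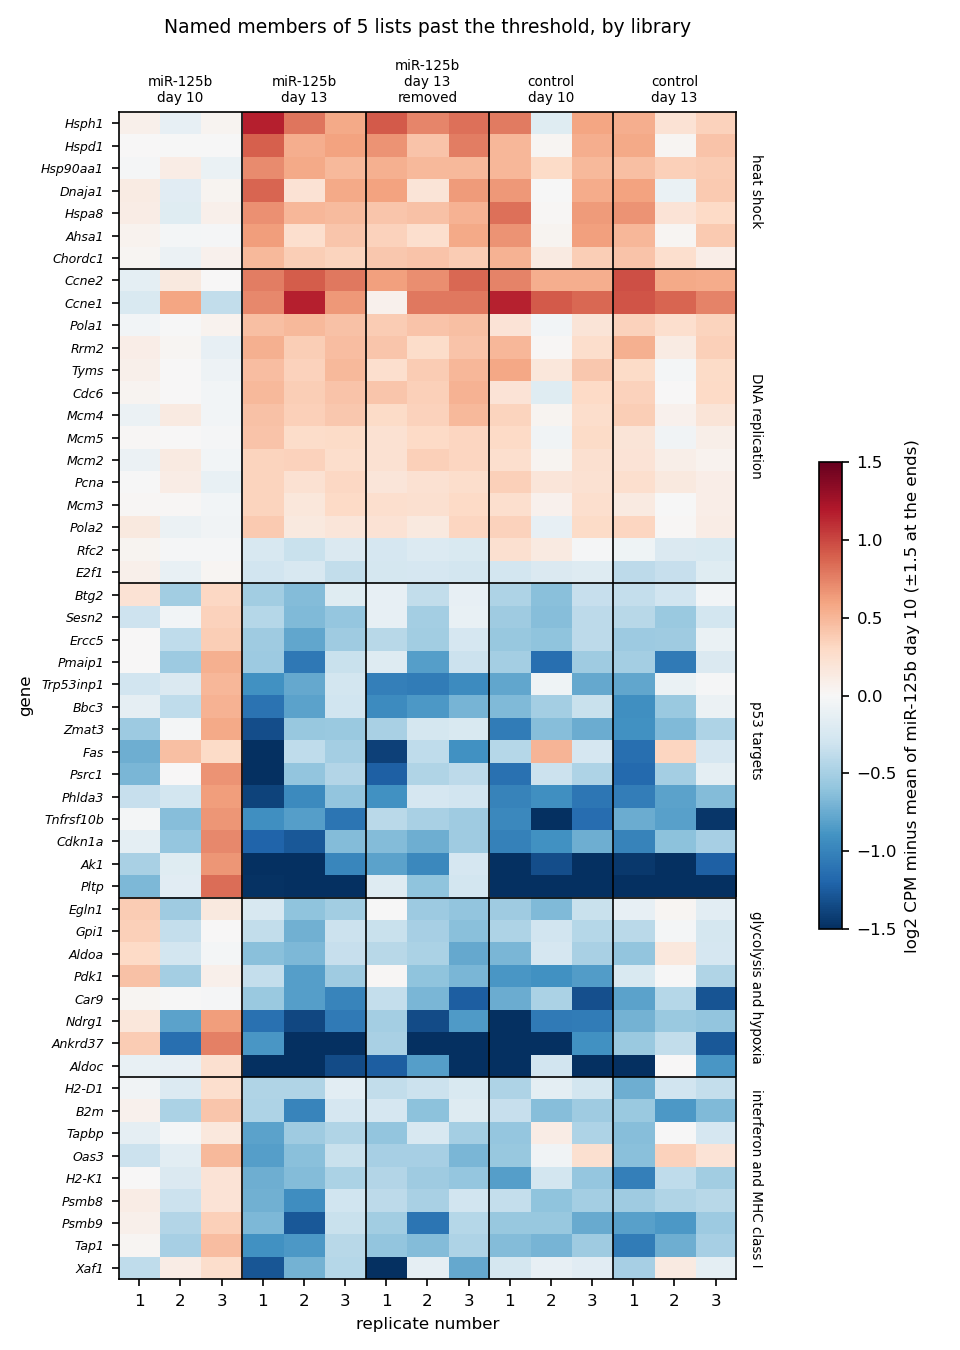
Log2 CPM minus the mean of the day 10 miR-125b libraries for named members of 5 lists past the threshold, by library, in 5 groups. Chaperone genes and replication genes other than E2f1 and Rfc2 are higher, and p53, glycolysis and MHC class I genes lower, in the 3 libraries labelled day 13 (continued). Day 10 replicate 3 holds the highest value of the 6 for most p53 targets, though not for Fas.

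Of 34 genes of cholesterol synthesis and its SREBP control, 3 fell and 1 rose, shares near those of all genes (6.93% fell and 6.48% rose). Fdft1, squalene synthase, was 234, 159 and 186 CPM at day 10 and 151, 130 and 135 CPM in the libraries labelled day 13 (continued). The groups did not overlap, and the log2 fold change was -0.47 ± 0.13 (SE, adjusted p = 0.0193). The withdrawn group held 204, 168 and 163 CPM, within the day 10 range. Tm7sf2, a sterol reductase, fell by 0.66 on the log2 scale, and Fasn, fatty acid synthase, rose by 0.33. The list median was -0.19 (adjusted median -0.21), beside 0.25 in control cells. Without the block, or without day 10 replicate 3, 0 members of the list passed.

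Among 38 genes of the amino acid response driven by ATF4, 3 rose (the tRNA synthetase genes Wars and Eprs, and Shmt2 of serine metabolism) and 5 fell, beside 6.48% and 6.93% of all genes. The falling genes were Sesn2, Vldlr, Chac1, Ddit4 and Ddit3. Ddit4, an inhibitor of mTORC1, was 350, 262 and 617 CPM at day 10 and 169, 179 and 167 CPM at day 13 (continued). Of 20 genes of the unfolded protein response, 0 passed, with the lowest adjusted p of 0.0606 for Canx. Without day 10 replicate 3, 0 of the 38 amino acid response genes passed, and without the block 1 rose and 1 fell.

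The 6 libraries carried megakaryocytic transcripts at high level. Itga2b (CD41) was 1100 to 1600 CPM, Pf4 was 1130 to 2830 CPM, Itgb3 was 281 to 575 CPM and Gp9 was 42.5 to 110 CPM. Defining markers of other cells were near 0: Alb reached 0.054 CPM, and Cd3e and Cdh5 at most 0.0559 and 0.336 CPM, while C1qa was at 0. Of 38 megakaryocyte and platelet genes, 2 fell (Selp and Vwf) and 0 rose, with a median of -0.20 (adjusted median -0.22). The share that fell was below the 6.93% of all genes, and 0 passed without the block or without day 10 replicate 3. Vwf, the platelet adhesion protein, was 10.8, 15.3 and 20.0 CPM and then 3.98, 12.6 and 9.50 CPM. Pf4 was 1810, 2830 and 2490 CPM and then 1130, 2480 and 1700 CPM (adjusted p = 0.163). In bulk RNA, fewer cells of a type and less RNA per cell cannot be told apart. Gata1, targeted by the guide in every group, was 300, 411 and 309 CPM and then 219, 419 and 291 CPM. These reads count the gene as a whole and do not check the edit.

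Of 32 erythroid genes, 3 rose (Tfrc, Kel and Car2) and 2 fell, among them the water channel gene Aqp1, shares near the 6.48% and 6.93% of all genes. Tfrc, the transferrin receptor, was 338, 188 and 203 CPM at day 10 and 489, 431 and 414 CPM at day 13 (continued), with no overlap and a log2 fold change of 0.90 ± 0.20 (SE, adjusted p = 0.0101). Of 19 heme synthesis and transport genes, 3 rose (among them Flvcr1 and Uros) and 2 fell (Slc25a28 and Ppox), beside the same 6.48% and 6.93%. Without day 10 replicate 3, 0 erythroid and 0 heme genes passed. Without the block, 0 erythroid genes passed, and 3 heme genes rose and 1 fell.

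Stem and progenitor genes included 4 of 22 that fell and 0 that rose, beside 6.93% and 6.48% of all genes. Myct1 went from 41.6, 26.9 and 43.8 CPM to 19.2, 23.8 and 19.2 CPM. The others, Tie1, Cd34 and Cd93, were higher in replicate 2 than in replicates 1 and 3 on both days (Cd34 at 4.03, 29.8 and 4.05 CPM and then 1.01, 12.7 and 2.21 CPM). Without the block 1 of the 4 passed, and 2 passed without day 10 replicate 3.

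Of 23 neutrophil and monocyte genes, 4 fell (among them Spi1, Ncf1 and Tyrobp) and 1 rose (S100a9), beside 6.93% and 6.48% of all genes. The list median was -0.40 (adjusted median -0.28). The summed level of the list was 789 to 960 CPM at day 10 and 577 to 635 CPM at day 13 (continued). In control cells it was 677 to 1000 CPM at day 10 and 569 to 729 CPM at day 13. The control median was -0.16, with 0 members past the threshold. The difference between the arms passed for 1 of the 23, S100a9, upward, beside 1.99% of all genes. Spi1, encoding the myeloid factor PU.1, was 72.0, 61.3 and 68.3 CPM and then 41.9, 32.3 and 47.4 CPM (log2 fold change -0.74 ± 0.12, SE, adjusted p = 0.00194). S100a9 rested on few reads, 1, 0 and 0 counts at day 10 and 8, 4 and 23 at day 13 (continued). Without day 10 replicate 3, and without day 10 replicate 1 or day 13 (continued) replicate 2, 1 of these genes fell.

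Of 19 mast cell and basophil genes 0 changed, and the lowest adjusted p was 0.0986 for Alox5. Hepatocyte, macrophage and endothelial or stromal lists had 2, 2 and 4 tested genes and 0 changes. Their summed levels at day 10 and day 13 (continued) were 2.59 to 3.32 and 2.71 to 3.74 CPM for hepatocyte genes, 4.72 to 7.41 and 4.31 to 5.37 CPM for macrophage genes, and 16.5 to 65.0 and 20.6 to 50.7 CPM for endothelial or stromal genes. Of 4 lymphoid genes, Cd3g rose, from 18, 11 and 16 reads at day 10 to 51, 20 and 67 reads at day 13 (continued).

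The fetal program list had 11 tested genes, of which Lin28b, Arid3a and Igf2bp3 rose and Egfl7 fell, beside 6.48% and 6.93% of all genes. Igf2bp3, an RNA-binding protein of fetal cells, was 31, 34.9 and 33.8 CPM and then 48.9, 47.5 and 45.2 CPM. Egfl7, the host gene of miR-126, was 26.8, 17.4 and 29.9 CPM and then 9.16, 5.70 and 10.1 CPM. Of 17 genes of microRNA processing and silencing, Xpo5, which exports precursors, rose, and Ago4 and Mov10 fell, beside 6.48% and 6.93% of all genes. Without the block, or without day 10 replicate 3, 0 of the 17 passed. Without day 10 replicate 3, 1 fetal program gene rose and 0 fell.

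Cytokine and growth factor lists had medians below 0. Of 26 JAK-STAT genes, 3 fell (Lif, Il3ra and Socs1) and 0 rose, beside 6.93% and 6.48% of all genes. The JAK-STAT median was -0.16 (adjusted median -0.14). Of 22 TGF-β and SMAD genes 1 fell and 0 rose, beside the same shares of all genes, and 3 had a positive log2 fold change. The median of that list was -0.22 (adjusted median -0.11). Of 30 immediate early genes, Myc and Spred2 rose and Ier3 and Ier5 fell, shares near those of all genes. Of 61 cytosolic ribosomal protein genes, 6 fell (among them Rps14, Rps19, Rpl18, Rps16 and Rpl28), beside 6.93% of all genes falling, with a median of -0.15 (adjusted median -0.20), and their reads can be shared with processed copies. Of 14 genes of the mitochondrial genome 0 changed, and the median was 0.04 (adjusted median -0.07). Without the block, 0 JAK-STAT, 0 TGF-β, 1 immediate early and 1 ribosomal protein gene passed, and without day 10 replicate 3 each of these lists had 0.

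The largest rises among well-expressed genes were led by Gm14303, a processed pseudogene whose reads may belong to other copies, and by Kbtbd8, an adaptor of a ubiquitin ligase. Kbtbd8 was 7.28, 12.2 and 6.27 CPM at day 10 and 16.3, 21.7 and 17.1 CPM at day 13 (continued), a log2 fold change of 1.11 ± 0.16 (SE, adjusted p = 0.00122). Gm38973, Adamts3, Rpusd2, Qsox2, Tfrc, Taf4b, Trpa1, Trim58, Hsph1 and Pno1 followed, with log2 fold changes of 0.86 to 1.07. Rpusd2, a pseudouridine synthase, was 8.31, 8.98 and 8.92 CPM and then 19.7, 16.7 and 16.1 CPM. Pno1, needed to mature the small ribosomal subunit, was 25.5, 35.4 and 24.4 CPM and then 52.2, 52.3 and 50.3 CPM. Neither gene overlapped between the days.

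The largest falls were in Nlgn2, Basp1, Il9r, Rhoc, Bcl3, H2-Ab1, Arhgef40, Guca1a, Spred3, Slc35d3, Aldoc and Fbxo2, with log2 fold changes of -2.41 to -1.72. Nlgn2, a cell adhesion protein of synapses, was 10.7, 13.4 and 14.5 CPM at day 10 and 1.44, 3.35 and 3.04 CPM at day 13 (continued). Arhgef40, a guanine nucleotide exchange factor, was 31.8, 30 and 40.3 CPM and then 8.44, 9.22 and 9.55 CPM (log2 fold change -1.93 ± 0.27, SE, adjusted p = 0.00122). Il9r, the interleukin 9 receptor, lay at 72.9 CPM in day 10 replicate 2 but at 8.50 and 6.11 CPM in replicates 1 and 3. It also went from 70.0 to 21.9 CPM in replicate 2 of the controls, and its call was lost in all 6 fits without a library. Of 97 named genes that passed in the miR-125b comparison, 24 passed in every fit without 1 library, 40 without the block and 97 by DESeq2.

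**Figure D5:**
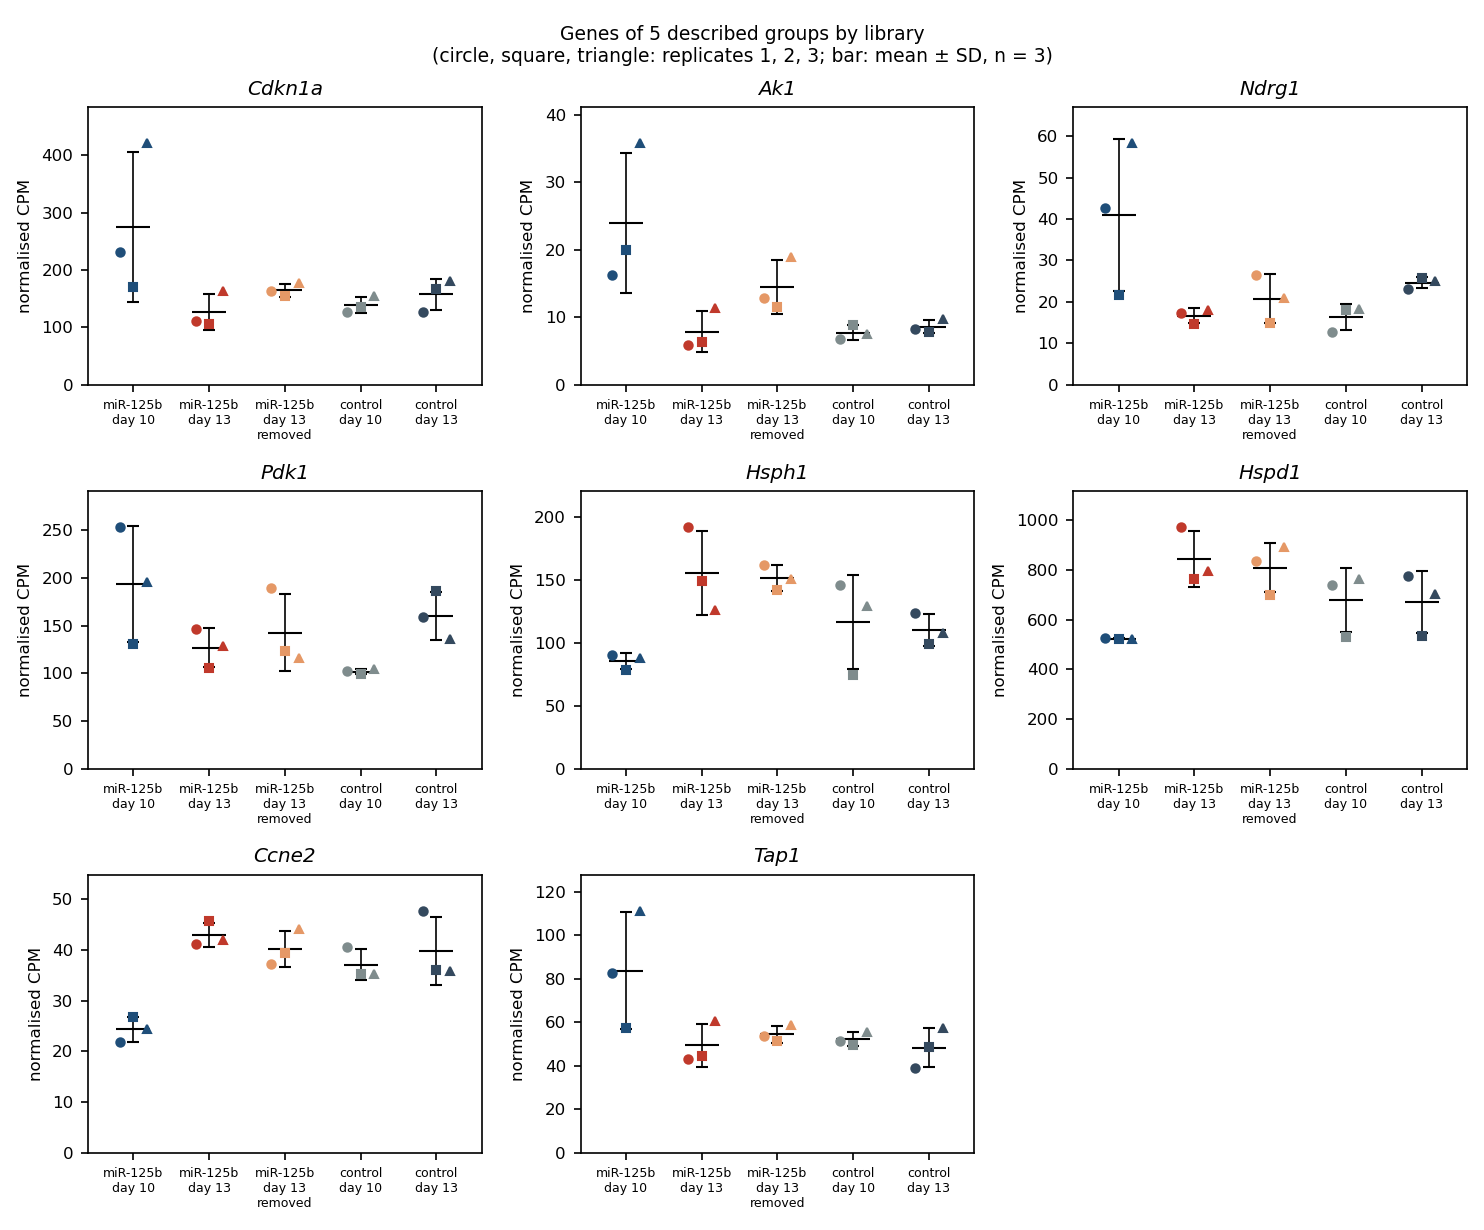
Normalised CPM of 8 genes (vertical axes from 0) in 5 groups of 3 libraries, with points for replicates 1 to 3 and bars for the mean ± SD. Cdkn1a, Ak1, Ndrg1, Pdk1 and Tap1 are highest, and Hsph1, Hspd1 and Ccne2 lowest, by group mean in the day 10 miR-125b libraries.

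Few genes passed in control cells over the same 3 days, which does not show that little changed. The 31 glycolysis and hypoxia genes all had positive log2 fold changes there, with a median of 0.45. By edgeR with the block, 5 genes changed (0.0373%): Rps29 rose, and Gm14303, Rpl15-ps3, Rps6-ps4 and Gm10275 fell, with reads that close copies may share. At an unadjusted p under 0.05 there were 857 genes. With only the compared libraries fitted, 333 genes passed in controls and 3104 in miR-125b cells. The difference between the arms passed for 517 genes (3.85%), with 267 (1.99%) changing upward and 250 (1.86%) downward in miR-125b cells relative to controls. This count rested on the pairing: without the block it was 3. The count was 35, 1583 and 1 without day 10 replicate 1, 2 or 3 of the miR-125b cells, 0, 104 and 317 without their day 13 (continued) replicate 1, 2 or 3, 3 and 1 without control day 10 replicate 1 or 3, and 1 and 131 without control day 13 replicate 2 or 3.

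The withdrawn day 13 group gave 715 changed genes (5.33%) against the same day 10 libraries, 378 up and 337 down, so both comparisons share their baseline and are set side by side only. List medians were 0.40 in the libraries labelled day 13 (continued) and 0.39 in the withdrawn group for heat shock. In the same order they were 0.22 and 0.21 for DNA replication, -0.46 and -0.34 for p53 targets, and -0.42 and -0.40 for glycolysis and hypoxia. For interferon and MHC class I they were -0.52 and -0.38, and for the reported targets 0.13 and -0.01. Log2 fold changes were close in value for Hspd1, at 0.68 and 0.62, and for Ccne2, at 0.81 and 0.72. Some reported targets lay far apart and others close: Arid3a was 0.71 and -0.03, Lin28b 0.70 and 0.14, and Zfp385a 0.44 and -0.10, while E2f3 was 0.50 and 0.47, Cbfb 0.47 and 0.35, and Bbc3 -0.75 and -0.85. Fdft1, not on the target list, was -0.47 and -0.11. Cdkn1a was -1.09 and -0.69. The difference between the withdrawn and the continued group was not tested here. Without the block the withdrawn comparison gave 24 genes, and it gave 0, 1704 and 0 without day 10 replicate 1, 2 or 3, and 607, 0 and 0 without withdrawn replicate 1, 2 or 3.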

How the data were processed

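Total RNA sequencing of 24 libraries in 8 groups was used, and the deposited table holds raw read counts per gene, made by the authors. Per the submitters' processing notes, the tools were fastp, HISAT2 2.0.5 and featureCounts with mm10. The strand setting and annotation release are not given in the sources used here, so reads of overlapping, antisense and pseudogene copies cannot be told apart. Of 47069 gene IDs, 46574 matched a GENCODE M21 name.

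Genes were filtered with filterByExpr, leaving 13419, and scaled by TMM. The 24 libraries were fitted together with edgeR 4.0.16 (limma 3.58.1, R 4.3.3), using group and replicate number as terms (14 residual degrees of freedom), a quasi-likelihood test and Benjamini-Hochberg adjustment over all genes tested, with a threshold of 0.05. The numbers pair the libraries: deviations from group means correlated at 0.163 to 0.781 in all 84 same-numbered pairs (median 0.475), and at 0.442 to 0.679 in the 3 pairs compared, against a median of -0.304 for 168 pairs of different number. Scripts were tested on simulated data.

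Named genes were Gata1, Arid3a, Abtb1 and the miR-125b loci, the 12 largest rises and 12 largest falls among genes past the threshold that moved the same way in all 3 pairs with an average log2 CPM of at least 2, up to 4 called members of each list by lowest p (other members by role), and up to 3 genes in each direction from the difference between the arms. The comparison and the lists were chosen with earlier results of these data known. Alternatives were no block, RLE scaling, no filter, another quasi-likelihood estimate, only the compared libraries, DESeq2 1.42.0 and leaving out each library. Adjustment for GC content and expression bins, and list counts without day 10 replicate 3, were chosen after seeing the data. Some list members past the threshold are counted but not reported here by name.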

Additional observations from a re-analysis of the deposited data

Results flagged for a closer look

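The change from day 10 to day 13 differed between miR-125b cells and control cells for 517 genes, by a test of the difference itself (the interaction term in edgeR, adjusted over all genes). Values below are log2 fold change in miR-125b cells (continued) minus that in controls, for named genes past the threshold. These differences use the same day 10 and day 13 libraries as the comparisons in the report and are no independent support for them, and the total rested on the pairing and on single libraries.

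Higher in miR-125b cells were the chaperone genes Hsph1 (0.919), Hspd1 (0.695), Dnaja1 (0.65) and Hsp90aa1 (0.607), and the cyclin gene Ccne2 (0.712). The reported targets Lin28b (0.616) and Zfp385a (0.611) were also higher, as were the amino acid response genes Wars (0.485) and Shmt2 (0.394) and the heme exporter gene Flvcr1 (0.661). Kbtbd8 (1.02), Rpusd2 (1.24), Qsox2 (0.885), Pno1 (1.13), the splicing factor gene Sf3b4 (0.805) and Gm38973 (1.64) were further genes of this direction. Gm14303 (3.7) and Rpl15-ps3 (3.01) are pseudogenes that fell in controls, and their reads may belong to other copies. S100a9 had a fitted difference of 8.74, which depends on the prior count because its libraries held 0 to 23 reads, and it is not a fold.

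Lower in miR-125b cells were the p53 targets Cdkn1a (-1.27), Ak1 (-1.75), Ercc5 (-0.758), Zmat3 (-0.971), Pmaip1 (-0.797) and Sesn2 (-0.675). The hypoxia and glycolysis genes Ndrg1 (-1.86), Pdk1 (-1.25) and Ankrd37 (-2.37) were lower too, as was the cholesterol synthesis gene Fdft1 (-0.74). The remaining genes were Vldlr (-1.04), Myct1 (-1.03), Egfl7 (-1.76), Nlgn2 (-3.1), Arhgef40 (-1.43), Clstn3 (-0.79) and Dennd2d (-1.1).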

How the results depend on the processing

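No named gene past the threshold changed sign under any alternative run. Values that did not pass turned without 1 library for Abtb1 (-0.113 to 0.0867) and Afp (-0.0546 to 0.43), as did the medians of the immediate early (-0.211 to 0.0849), microRNA pathway (-0.0458 to 0.0794), mitochondrial genome (-0.0581 to 0.13) and lymphoid (-0.125 to 0.56) lists. The median also changed sign when adjusted for GC content and expression for the immediate early (0.0556), mitochondrial genome (-0.0724) and hepatocyte (0.117) lists. The number of genes changed between day 10 and day 13 (continued), 1800, was 474 with no replicate block and 3104 with only the compared libraries fitted, and leaving out 1 library gave 182 to 2634. The 5 genes of the control comparison became 3 with no replicate block, 8 with RLE scaling, 13 without the filter, 333 with only the compared libraries, 31 by DESeq2 and 0 to 3 without 1 library. The 517 differences between the arms became 3 with no replicate block, 962 by DESeq2 and 0 to 1583 without 1 library. The 715 genes of the withdrawn comparison became 24 with no replicate block, 1879 with only the compared libraries, 1200 by DESeq2 and 0 to 1704 without 1 library. A cause was not tested. RLE scaling moved the median of all genes from -0.0309 to -0.0331. With 3 libraries a group, genes of few reads carry wide errors.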

Other observations

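Genes outside the lists, chosen here after their values were seen, included several that serve ribosome assembly. Noc3l, Rrp12, Utp20, Heatr1, Tsr1 and Ddx21, which act in pre-ribosomal RNA processing or its transcription, rose in all 3 pairs between day 10 and the libraries labelled day 13 (continued), with log2 fold changes of 0.77, 0.74, 0.68, 0.65, 0.66 and 0.67. The highest edgeR adjusted p of these was 0.0382, for Heatr1. Among genes whose products act in splicing, 3 that rose were Sf3b3 (0.63), Sfpq (0.50) and Tra2b (0.47). Polr2a, the large subunit of RNA polymerase II, also rose (0.65). Genes that fell in all 3 pairs included Serpina3g, a protease inhibitor (-1.64), Gsn, encoding the actin-severing protein gelsolin (-1.57), and Mt2, a metallothionein gene (-1.28). No list of these genes was tested.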
